A study of Mus musculus with 16 samples.

Results

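Nupr1, which encodes a small stress-induced nuclear protein, was followed together with 8 genes of the integrated stress response: Eif2ak3, Atf4, Atf3, Ddit3, Trib3, Chac1, Asns and Ddit4. These 9 genes were taken by symbol from the 18193 genes named on the array, and all of their probe sets that carried a single gene symbol were kept, 17 of 34945. Nupr1 was chosen by its measured aged minus young difference in stem cells on these same arrays, so its levels are given as a description with no test. The other 8 were chosen as known members of the pathway, with earlier results of these data known.

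The study measured RNA on 16 arrays of C57Bl6, wild-type mouse cells in 7 groups, asking how haematopoietic stem cells (HSC), the bone marrow cells that renew the blood, change with age, after transplantation and after reprogramming. Cultured on feeder fibroblasts were 2 samples of induced pluripotent stem cells (iPSC) of aged haematopoietic origin, 2 iPSC of young origin, and 2 commercial embryonic stem cells (ESC) from 2 suppliers. From bone marrow came 2 samples of aged transplanted HSC and 2 of young transplanted HSC, sorted from recipients of such marrow, then 3 of aged steady-state HSC from males of 21 to 24 months and 3 of young steady-state HSC from males of 3 to 4 months. The labels give neither age nor sex for the transplanted HSC, and they do not name the clones, the reprogramming factors or the sort gate. They call the HSC and iPSC samples biological replicates without saying whether animals were pooled, and the ESC samples have no such label. The p-values below measure only the spread between these samples.

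In the integrated stress response, kinases that sense a stress phosphorylate the translation factor eIF2, which lowers protein synthesis in general while translation of the Atf4 mRNA goes up. ATF4 protein then switches on genes of amino acid supply, redox defence and cell fate, among them ASNS, CHAC1, TRIB3, DDIT3 and NUPR1. Since ATF4 is controlled largely at translation, its mRNA level is only part of its regulation, and in HSC the pathway is known as a safeguard under stress. ATF4 with its C/EBP partners binds the C/EBP-ATF response element.

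The letters TGATGNAAN, or NTTNCATCA on the opposite strand, were searched on both strands in the 300 bases around each transcript start (250 before and 50 after) in RefSeq's promoter table, build GRCm38.p6. They stood in 5 of the 9 members and in 3.95% of all 32851 promoters. The cAMP response element TGACGTCA stood in 0 of the 9 and in 1.79% of all promoters, so no match of the one overlapped a match of the other in the members. The 250 bases before the start are given here for the 4 members with the match upstream, with the matched letters in capitals, to let the elements be compared. They are Nupr1 at chr7:126625471-126625720 on the minus strand, Atf3 at chr1:191183334-191183583 on the minus strand, Chac1 at chr2:119350992-119351241 on the plus strand and Asns at chr6:7693210-7693459 on the minus strand, each written in the direction of transcription.
Nupr1: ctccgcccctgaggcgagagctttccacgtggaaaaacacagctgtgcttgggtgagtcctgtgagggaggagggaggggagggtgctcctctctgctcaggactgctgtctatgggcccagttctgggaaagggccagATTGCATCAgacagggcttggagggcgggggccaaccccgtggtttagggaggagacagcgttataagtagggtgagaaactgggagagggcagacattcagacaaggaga
Atf3: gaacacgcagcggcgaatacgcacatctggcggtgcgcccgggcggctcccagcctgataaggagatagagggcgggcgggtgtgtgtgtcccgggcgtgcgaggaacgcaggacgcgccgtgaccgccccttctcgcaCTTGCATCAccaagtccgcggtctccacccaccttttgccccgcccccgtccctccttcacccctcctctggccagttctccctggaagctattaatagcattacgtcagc
Chac1: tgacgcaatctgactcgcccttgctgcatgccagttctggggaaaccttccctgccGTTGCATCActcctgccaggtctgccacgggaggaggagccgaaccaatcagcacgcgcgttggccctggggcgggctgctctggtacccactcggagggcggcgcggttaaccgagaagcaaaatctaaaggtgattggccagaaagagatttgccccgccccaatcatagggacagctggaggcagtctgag
Asns: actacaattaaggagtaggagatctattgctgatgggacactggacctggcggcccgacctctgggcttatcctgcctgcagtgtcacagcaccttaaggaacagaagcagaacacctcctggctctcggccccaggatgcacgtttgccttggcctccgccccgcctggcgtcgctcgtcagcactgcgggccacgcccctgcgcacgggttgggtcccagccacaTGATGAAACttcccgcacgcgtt
The match began 111 bases before the start in Nupr1, 111 in Atf3, 194 in Chac1 and 23 in Asns. Asns held it on the transcribed gene's own strand and the other 3 on the opposite strand. In Trib3 it began at base 14 of the transcript, and the windows of Atf4, Ddit3, Ddit4 and Eif2ak3 did not hold these letters. A match is a string of letters, not a measured binding site.

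Before the members are compared, the labels were set against marker genes. All 5 measured HSC markers, among them the receptor gene Kit, were above the dim level (the 25th percentile of all genes on an array) in every HSC group. Their summed level was 11.96 to 12.48 log2 in transplanted HSC against 13.76 to 14.11 log2 in steady-state HSC. All 6 pluripotency markers were above the dim level in iPSC and ESC. The RNA Xist, made from the inactive X, stood between 13.31 and 13.56 log2 on the 4 transplanted arrays against 6.09 to 6.71 log2 on the steady-state arrays, and the Y-linked Eif2s3y between 3.48 and 3.88 against 10.21 to 10.79 log2. The transplanted arrays thus carried a female pattern and the steady-state arrays a male one, so transplantation and this difference cannot be told apart. Array medians ran from 43.5 to 51.9 intensity units, and a log2 difference of 1 is a doubling of intensity.

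Nupr1 was high in aged steady-state HSC and in both transplanted groups, and low in young steady-state HSC. The brighter of its 2 probe sets read 10.65 and 10.38 log2 in aged transplanted HSC against 9.04 and 9.73 log2 in young transplanted HSC. It read 9.51, 9.57 and 9.83 log2 in aged steady-state HSC against 6.03, 6.45 and 6.19 log2 in young steady-state HSC. In neither pair did an aged array overlap a young one. The pluripotent cells lay between these extremes, at 8.19 and 8.12 log2 in aged-origin iPSC, 8.50 and 8.46 log2 in young-origin iPSC, and 8.13 and 7.86 log2 in ESC.

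By mean level Nupr1 therefore ran from 10.52 ± 0.19 log2 in aged transplanted HSC, through 9.64 ± 0.17 (SD, n = 3) in aged steady-state HSC and 9.38 ± 0.49 in young transplanted HSC, to 8.48 ± 0.03 in young-origin iPSC. Aged-origin iPSC at 8.15 ± 0.05, ESC at 7.998 ± 0.191 and young steady-state HSC at 6.22 ± 0.21 (SD, n = 3) followed (SD, n = 2 where not given). Of these neighbours, aged steady-state and young transplanted HSC overlapped, as did aged-origin iPSC and ESC, and the others did not. The lowest group stood 1.78 log2 below the next one up, which was the largest gap in the order.

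The aged minus young difference of Nupr1 was 3.41 log2 (SE 0.21, 10.7-fold) in steady-state HSC and 1.13 log2 (SE 0.26, 2.19-fold) in transplanted HSC, and it was -0.33 log2 (SE 0.13) between iPSC of aged and young origin. The first is a larger difference than that of 99.9% of the 13645 genes measured above the dim level. Nupr1 was chosen by its age difference on these arrays, so this rank is no evidence of its own. Leaving out single young transplanted arrays and the other alternatives tried moved the value in transplanted HSC between 0.79 and 1.48 log2. Transplanted minus steady-state, averaged over both ages, was 2.02 log2 (SE 0.17), and the age difference in transplanted cells minus that in steady-state cells was -2.28 log2 (SE 0.34). The dimmer probe set gave 2.98 log2 (SE 0.21), 1.10 log2 (SE 0.25) and -0.27 log2 (SE 0.14) for the 3 age differences. Both probe sets thus kept the same order of the aged and young arrays in all 3 settings.

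**Figure D1:**
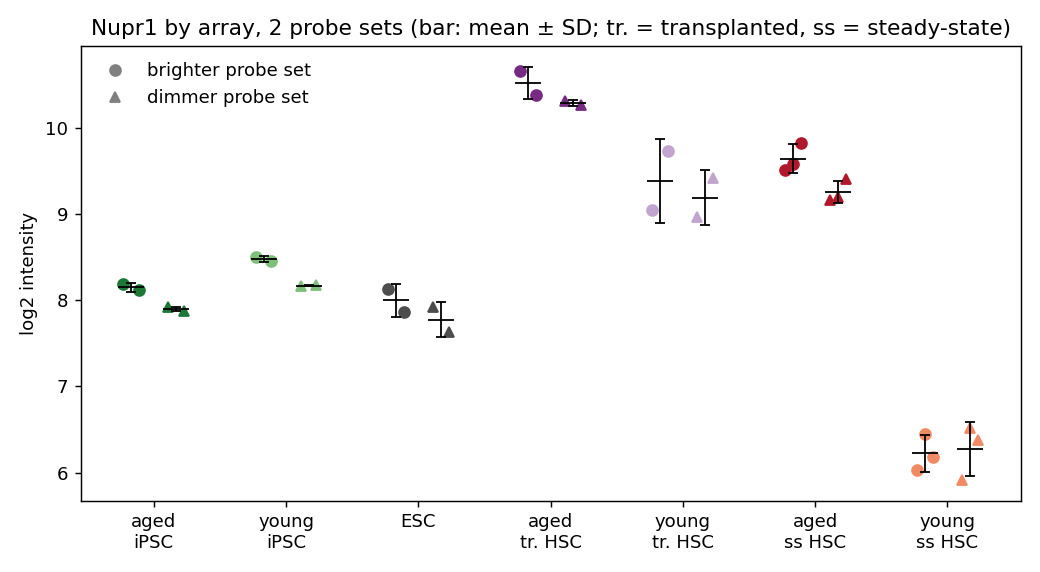
Nupr1 log2 intensity on each array, by group, for its 2 probe sets (circles the brighter, triangles the dimmer), with the group mean and SD as bars; tr. is transplanted and ss steady-state. The 3 young steady-state arrays lie lowest, at 6.03 to 6.45 log2 for the brighter probe set, and the 2 aged transplanted arrays highest, at 10.38 and 10.65.

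Genes whose levels ran most like those of Nupr1 were looked for by Pearson correlation, as a description, among 13644 other genes. Over the 10 HSC arrays the closest were the glutathione transferase gene Gstm2 (r = 0.97), Tnfaip2 (0.96), the leukotriene receptor gene Cysltr2 (0.95), the lectin receptor gene Clec1a (0.94) and the caspase gene Casp12 (0.93). Gstm2 averaged 8.11 log2 in aged and 6.78 log2 in young transplanted HSC, and 7.38 log2 in aged and 4.39 log2 in young steady-state HSC. Over all 16 arrays the closest were Exoc3l4 (r = 0.86), Gstm2 (0.85), Kiss1r (0.82), Ece1 (0.81) and Zfp932 (0.78), so Gstm2 alone was in both lists. The arrays share cell class and age group, so these r values rest largely on group means. No other member came near: over the 16 arrays their r with Nupr1 ran from -0.51 for Eif2ak3 to 0.31 for Ddit4, and over the 10 HSC arrays from -0.54 for Eif2ak3 to 0.26 for Ddit4.

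Whether the rest of the pathway differed with age was asked first in steady-state HSC. None of the other 8 members was called (limma, adjusted p under 0.05 over all genes), against 1.18% of all genes. An unadjusted p under 0.05 was found for 0 of the 8, beside 861 of the 13645 genes tested. Asns, which makes asparagine, and Trib3, a pseudokinase that restrains ATF4 signalling, had aged and young arrays that did not overlap. How many of all genes lay apart in this way was not counted, so no result is drawn from it. Asns read 8.66, 8.90 and 8.91 log2 in aged against 8.34, 8.32 and 8.50 log2 in young cells, a difference of 0.44 (SE 0.21, adjusted p = 0.86). Trib3 read 7.85, 8.04 and 8.26 log2 in aged against 7.43, 7.56 and 7.79 log2 in young cells, a difference of 0.46 (SE 0.24, adjusted p = 0.955). On these probe sets every aged array lay above every young one, by less than the test could separate. The other probe set of Asns was also without overlap, at 0.48 (SE 0.26), but that of Trib3 overlapped, with 7.06, 7.20 and 7.22 log2 in aged against 6.79, 6.90 and 7.11 log2 in young cells and a difference of 0.23 (SE 0.22).

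Ddit4, an inhibitor of the growth kinase complex mTORC1, pointed the other way, at -0.60 log2 (SE 0.42, unadjusted p = 0.186 by limma). Its arrays overlapped, reading 8.48, 7.39 and 7.06 log2 in aged against 7.70, 8.87 and 8.16 log2 in young cells. Of the 8 members, 7 had a difference above 0, with a median of 0.26 log2 beside -0.02 log2 for all genes, and none of these differences passed the test. The remaining differences were 0.48 (SE 1.01) for Atf3, 0.31 (SE 0.30) for Chac1, 0.20 (SE 0.23) for Atf4, 0.06 (SE 0.22) for Ddit3 and 0.03 (SE 0.43) for Eif2ak3. The summed HSC markers stood at 14.03 to 14.11 log2 in aged against 13.76 to 13.99 log2 in young arrays, and their part in these values was not tested.

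The wider pathway was followed in 4 lists and a list of the members' paralogues. In steady-state HSC the test called 0 of 13 genes of the eIF2 machinery, 0 of 25 ATF4 targets of amino acid supply and tRNA charging, 0 of 18 genes of the ATF6 and IRE1 branches with their chaperones, and 0 of 6 paralogues. Of 13 further stress factors 1 was called: Vldlr, a lipoprotein receptor gene induced by the pathway, averaged 10.75 log2 in aged against 9.64 log2 in young cells, a difference of 1.12 (SE 0.20, adjusted p = 0.0266 by limma). In transplanted HSC 0 genes of any of the lists were called by age. Genes at an unadjusted p under 0.05 (limma) were also counted in the eIF2, ATF4 target, stress factor, paralogue and ATF6 and IRE1 lists, in this order. In transplanted HSC the counts were 3, 4, 1, 2 and 0, beside 2079 of all 13645 genes. In steady-state HSC they were 0, 2, 2, 2 and 0, beside 861 of 13645. The medians of the lists lay between -0.19 and 0.06 log2 in steady-state HSC and between -0.16 and 0.10 log2 in transplanted HSC, beside -0.02 log2 for all genes in each.

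In transplanted HSC the 8 members were again not called by age: 0 of 8, against 1.35% of all genes. Of the 8, 2 had an unadjusted p under 0.05 (limma), beside 2079 of the 13645 genes tested. Trib3 read 7.24 and 7.46 log2 in aged against 5.66 and 6.53 log2 in young transplanted cells, a difference of 1.25 (SE 0.29, adjusted p = 0.0701 by limma). Ddit3, which encodes the cell-death factor CHOP, read 7.03 and 7.15 log2 in aged against 8.48 and 7.59 log2 in young cells, a difference of -0.94 (SE 0.27, adjusted p = 0.136). On these probe sets the aged and young arrays did not overlap, and the genes pointed in opposite directions. Atf3 (-1.21, SE 1.23) and the brightest probe set of Atf4 (-0.49, SE 0.28) were also without overlap. How many of all genes were without overlap was not counted. The other probe sets of Trib3 and Ddit3 gave 0.32 (SE 0.27) and -0.27 (SE 0.58), both with arrays that overlapped. Between the same arrays the summed HSC markers stood at 12.19 and 12.48 log2 in aged against 11.96 and 12.14 log2 in young cells. Summed B cell markers stood at 7.50 and 7.34 log2 in aged against 7.67 and 8.40 log2 in young cells, and the mean of 8 immediate early genes such as Fos and Jun at 8.46 and 8.68 against 9.79 and 9.36 log2. Their part in these values was not tested.

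These values rested on single young transplanted arrays, which differed widely from each other. Eif2ak3, the gene of the kinase PERK that senses stress in the endoplasmic reticulum, read 5.19 and 7.38 log2 on the 2 young arrays, with 5.67 and 5.41 log2 on the aged ones. Without young transplanted replicate 1, Eif2ak3 was called at -1.84 log2 (adjusted p = 0.0057 by limma), in a fit that called 8.35% of all genes. Without replicate 2 its difference was 0.35, and Trib3 (1.69, adjusted p = 0.00403) and Ddit3 (-1.39, adjusted p = 0.00386) were called, with 10.8% of all genes. Trib3 was also called after quantile normalisation (1.43, adjusted p = 0.0327, with 1.67% of all genes) and with all 16 arrays in the fit (adjusted p = 0.0116, with 4.94%). The difference between the age effects, transplanted minus steady-state, was called for 0 of the 8 members against 0.125% of all genes. An unadjusted p under 0.05 (limma) was found for 1 member, beside 1328 of the 13645 genes tested. Without young transplanted replicate 1 that count of calls was 1, with 2.51% of all genes called, and without replicate 2 it was 2, with 5.3%.

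**Figure D2:**
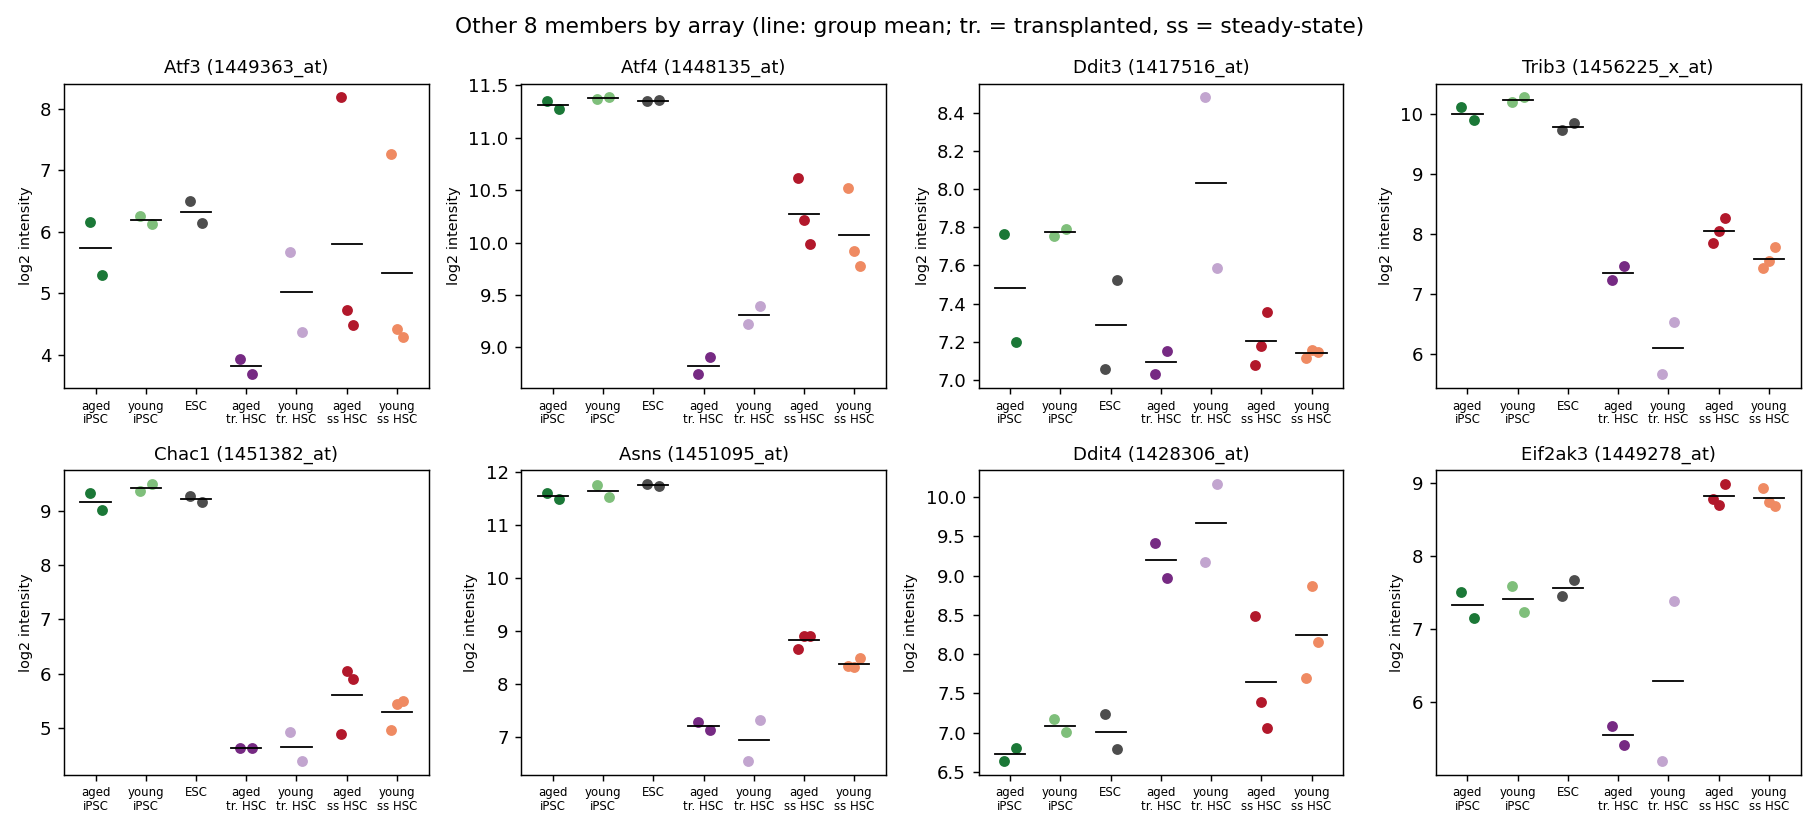
Log2 intensity of the 8 other members on each array, by group, for the probe set that stands for the gene, with the group mean as a line. Asns, Chac1 and Trib3 lie highest on the iPSC and ESC arrays, Ddit4 highest on the transplanted arrays, and Atf3 is high on array 1 of each steady-state group.

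Transplanted HSC differed from steady-state HSC over most of the array, and the pathway members differed about as often as other genes did. Of the 8 members 6 were called, 75% against 69.9% of all genes, which is a share near the background. Of these, 1 was called higher, against 19.8% of all genes, and 5 lower, against 50.1% of all genes. Over all genes the median was -0.46 log2 here, and -0.60 log2 when each array was centred on its median, so each called difference of a member below is also given relative to the -0.46. These arrays also differed in the female and male patterns and HSC marker levels given above, whose part in these results was not tested. Summed B cell markers stood at 7.34 to 8.40 log2 in transplanted against 8.42 to 8.78 log2 in steady-state HSC, while myeloid (10.39 to 11.47 against 10.52 to 11.62 log2) and erythroid markers (7.49 to 8.60 against 7.82 to 8.35 log2) overlapped, with Ms4a1, Itgam and Hba-a1 below the dim level in every HSC group. In sorted bulk cells, fewer cells of a type and less RNA per cell cannot be told apart.

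Among the sensors and factors, Eif2ak3 read 5.67 and 5.41 log2 in aged and 5.19 and 7.38 log2 in young transplanted cells, against 8.78, 8.70 and 8.98 log2 in aged and 8.92, 8.74 and 8.68 log2 in young steady-state cells. No transplanted array reached the steady-state range, and the difference was -2.89 log2 (SE 0.34, adjusted p = 2.77e-05 by limma, -2.43 relative to all genes). A dimmer probe set of the gene went the opposite way, with 6.73, 6.47, 6.09 and 6.20 log2 in transplanted cells against 4.43 to 4.93 log2 in steady-state cells, a difference of 1.74 (SE 0.16, adjusted p = 4.43e-06 over all probe sets). On this set 3 of the 6 steady-state readings were below the 25th percentile of their array, and another probe set of the gene was below it on every array. The direction of Eif2ak3 therefore depended on the probe set, and which transcripts each set reports was not tested here.

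Atf4, the pathway's central transcription factor gene, read 8.75 and 8.91 log2 in aged and 9.23 and 9.40 log2 in young transplanted cells, against 10.61, 10.22 and 9.99 log2 in aged and 10.52, 9.92 and 9.77 log2 in young steady-state cells. The groups did not overlap and the difference was -1.10 log2 (SE 0.18, adjusted p = 0.000349, -0.64 relative to all genes). Its 2 dimmer probe sets pointed the other way without being called, at 0.35 (SE 0.19) and 0.17 (SE 0.15). With the mean of all probe sets per gene, neither Atf4 (-0.19, adjusted p = 0.279) nor Eif2ak3 (-0.05, adjusted p = 0.743) was called. Ddit3 was not called at 0.39 (SE 0.17, adjusted p = 0.066), but it was called higher with the mean of both its probe sets (0.65, adjusted p = 0.0287 by limma), after quantile normalisation (0.54, adjusted p = 0.036) and without young transplanted replicate 2 (0.61, adjusted p = 0.00112). Its other probe set was at 0.92 (SE 0.37, adjusted p = 0.0496 over all probe sets). Atf3 was at -1.14 (SE 0.80, adjusted p = 0.22).

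**Figure D3:**
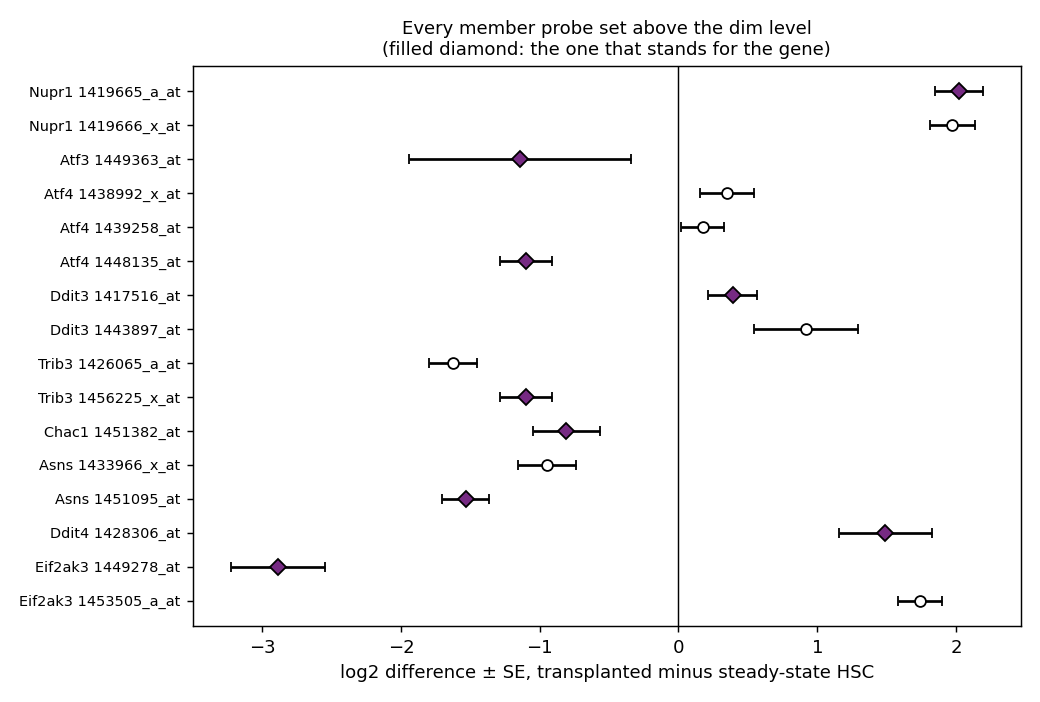
Transplanted minus steady-state log2 difference with its SE for the 16 member probe sets above the dim level; filled diamonds mark the probe set that stands for the gene. Those of Nupr1, Ddit3, Trib3 and Asns agree in sign within each gene, while those of Atf4 and Eif2ak3 lie on both sides of 0.

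Among the pathway's outputs, Asns was at 7.28 and 7.13 log2 in aged and 6.55 and 7.33 log2 in young transplanted cells, below every steady-state array. Its difference was -1.53 log2 (SE 0.16, adjusted p = 1.48e-05 by limma, -1.08 relative to all genes), and -0.95 (SE 0.21) on its other probe set. Trib3 was at -1.10 (SE 0.19, adjusted p = 0.00038, -0.64 relative to all genes) and -1.62 (SE 0.17) on its other probe set. Chac1, an enzyme that breaks down glutathione, was at -0.81 (SE 0.24, adjusted p = 0.0108, -0.35 relative to all genes), with 4.63, 4.64, 4.92 and 4.403 log2 in transplanted cells against 4.90 to 6.04 log2 in steady-state cells, so these overlapped on array 1 of aged steady-state HSC. Trib3 overlapped by a single array, the aged transplanted one at 7.46 log2, which lay above the lowest young steady-state array at 7.43 log2.

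Ddit4 was the member called higher. It read 9.42 and 8.97 log2 in aged and 9.17 and 10.17 log2 in young transplanted cells, against 8.48, 7.39 and 7.06 log2 in aged and 7.70, 8.87 and 8.16 log2 in young steady-state cells. All 4 transplanted arrays lay above all 6 steady-state arrays, and the difference was 1.49 log2 (SE 0.33, adjusted p = 0.00232 by limma, 1.95 relative to all genes). Nupr1 was the other member whose transplanted mean was well above the steady-state mean, by 2.48 log2 relative to all genes, with no test. Its arrays overlapped, with 9.04 and 9.73 log2 in young transplanted against 9.51 to 9.83 log2 in aged steady-state HSC. Within each age its mean was 9.38 against 6.22 log2 in young cells and 10.52 against 9.64 log2 in aged cells.

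In the wider pathway, transplanted HSC had Eif2ak2, the gene of the kinase PKR that senses double-stranded RNA, at 10.16 against 6.98 log2 in steady-state HSC, a difference of 3.18 (SE 0.22, adjusted p = 7.22e-07). Eif2b4, a subunit of the eIF2 exchange factor, differed by -2.63 (SE 0.17) and Eif2ak4, the gene of the amino acid sensor GCN2, by -1.72 (SE 0.29). In all, 2 of 13 genes of the eIF2 machinery rose and 7 fell, among them the Y-linked Eif2s3y. Their median was -0.58 log2 beside -0.46 log2 for all genes. Over all genes 19.8% were called higher and 50.1% lower. The counts of falls in this and the other lists are therefore not read as a result about the pathway. Of 25 ATF4 targets 3 rose, such as the serine-to-glycine enzyme gene Shmt2 (1.19, SE 0.14), and 15 fell, such as the tRNA synthetase gene Yars (-2.20, SE 0.20) and the amino acid transporter genes Slc38a2 (-1.60, SE 0.19) and Slc1a5 (-1.46, SE 0.15), with a median of -0.62 log2.

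The endoplasmic reticulum genes of the ATF6 and IRE1 branches had 2 of 18 higher and 10 lower, beside 19.8% and 50.1% of all genes. Their median was -0.63 log2 beside -0.46 log2 for all genes. Pdia6, a disulfide isomerase gene, averaged 7.999 log2 in transplanted against 11.55 log2 in steady-state HSC (difference -3.56, SE 0.15, adjusted p = 4.98e-08 by limma). Herpud1 differed by -2.43 (SE 0.18) and Edem1 by -1.93 (SE 0.17), both of which act in protein disposal from that compartment, while the co-chaperone gene Dnajc3 differed by 1.27 (SE 0.13). Of 13 stress factors 2 rose and 8 fell, such as the growth arrest gene Gadd45a (-2.02, SE 0.25) and Nfe2l2 (-1.77, SE 0.14), the gene of the antioxidant factor NRF2. Of the 6 paralogues 5 fell, among them Trib2 (-2.04, SE 0.19) and Chac2 (-1.80, SE 0.19), and Nupr1l, the paralogue of Nupr1, rose by 1.49 log2 (SE 0.16, adjusted p = 1.4e-05).

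**Figure D4:**
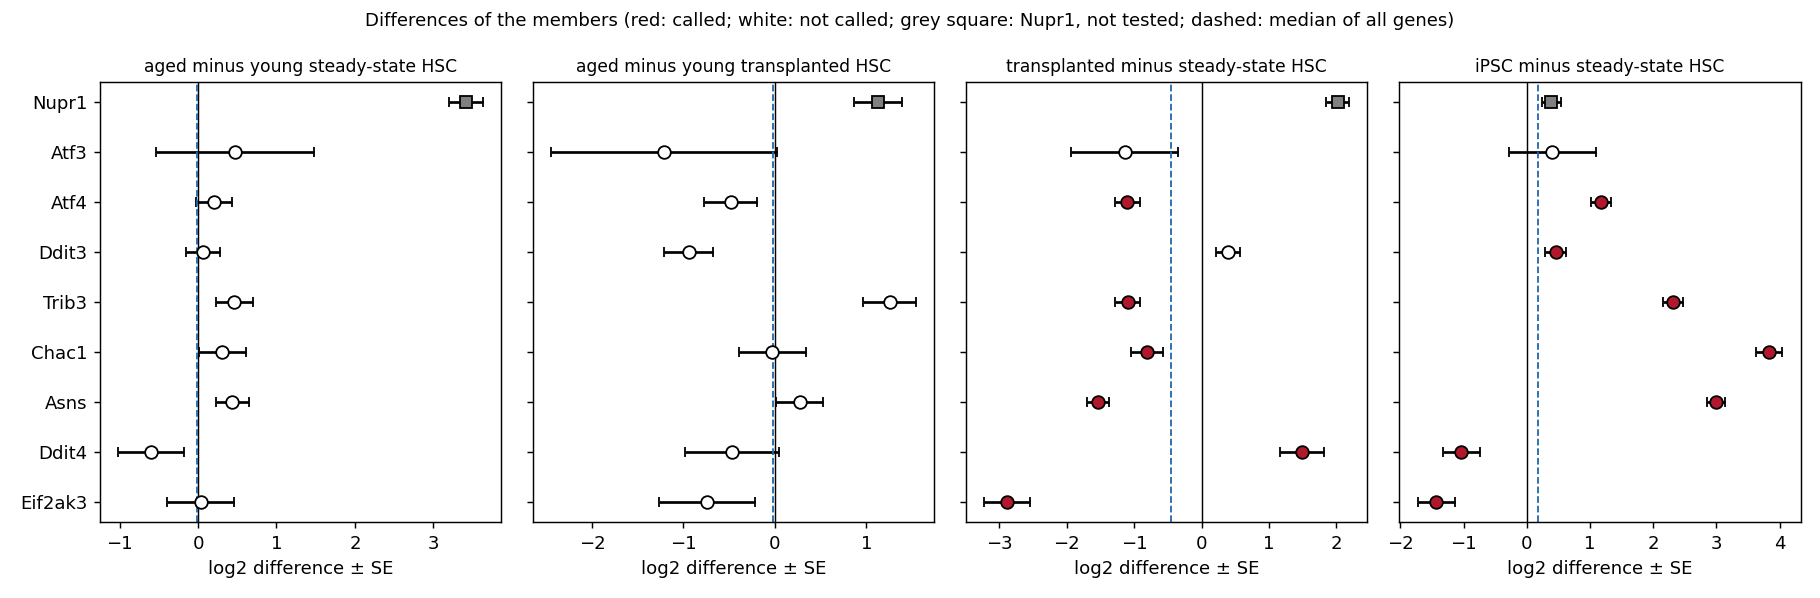
Log2 difference with its SE of the 9 members in 4 comparisons. Red circles were called by limma, white circles were not, the grey square is Nupr1 with no test, and the dashed line is the median of all genes. No circle is red in either age comparison, 6 are red in transplanted minus steady-state HSC and 7 in iPSC minus steady-state HSC.

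Reprogrammed cells were then set against steady-state HSC, with aged and young sources averaged on each side. The iPSC were cultured on feeder fibroblasts and the HSC came from bone marrow, so reprogramming and culture cannot be told apart here. Chac1, Asns and Trib3 were severalfold higher in iPSC, and Ddit4 and Eif2ak3 were lower. Of the 8 members 7 were called, 87.5% against 76.4% of all genes. In the 2 directions, 5 were higher against 41.8% of all genes and 2 lower against 34.7% of all genes. Over all genes the median was 0.17 log2, and over the 8 members it was 0.81 log2.

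Chac1 read 9.32 and 9.02 log2 in aged-origin and 9.36 and 9.48 log2 in young-origin iPSC, against 4.90, 6.04 and 5.90 log2 in aged and 4.97, 5.44 and 5.49 log2 in young steady-state HSC, a difference of 3.84 (SE 0.21, 14.3-fold, adjusted p = 4.91e-10 by limma). Asns read 11.62, 11.50, 11.75 and 11.53 log2 in the 4 iPSC arrays against 8.32 to 8.91 log2 in the 6 steady-state arrays, a difference of 3.00 (SE 0.14, 7.99-fold, adjusted p = 1.25e-10). Trib3 read 10.13, 9.90, 10.21 and 10.28 log2 in iPSC against 7.43 to 8.26 log2 in HSC, a difference of 2.31 (SE 0.16, 4.96-fold, adjusted p = 8.52e-09). In all 3 genes the lowest iPSC array lay above the highest steady-state array. Atf4 differed by 1.17 (SE 0.16, 2.26-fold, adjusted p = 8.88e-06), with 11.28 to 11.39 log2 in iPSC against 9.77 to 10.61 log2 in HSC, and all 3 of its probe sets pointed up.

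The other members did not share this direction or its size. Eif2ak3 read 7.50, 7.15, 7.59 and 7.23 log2 in iPSC against 8.68 to 8.98 log2 in steady-state HSC, a difference of -1.43 (SE 0.30, adjusted p = 0.000543 by limma), while its dimmer probe set differed by 0.20 (SE 0.13) and was not called. Ddit4 read 6.64, 6.80, 7.17 and 7.004 log2 in iPSC against 7.06 to 8.87 log2 in HSC, a difference of -1.04 (SE 0.29, adjusted p = 0.00505). The groups of Ddit4 overlapped and those of Eif2ak3 did not. Ddit3 passed narrowly at 0.45 (SE 0.17, adjusted p = 0.0271) and the call depended on single arrays. It was lost without aged-origin iPSC replicate 1, where the difference was 0.31 (adjusted p = 0.152). It was lost at about the same difference without aged steady-state replicate 1 (0.42, adjusted p = 0.0555), young-origin iPSC replicate 1 (0.46, adjusted p = 0.0594) or young-origin iPSC replicate 2 (0.45, adjusted p = 0.069). Its second probe set differed by -0.52 (SE 0.33), and with the mean of both sets the difference was -0.03.

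In the lists of other pathway genes, most ATF4 targets were higher in iPSC. Of the 25 ATF4 targets of amino acid supply and tRNA charging that were also tested among the HSC arrays, 20 rose and 2 fell. Over all genes 41.8% were called higher and 34.7% lower. The median of the 25 was 1.37 log2 beside 0.17 log2 for all genes. Another 4 passed the dim filter only with the iPSC and ESC arrays included, so their calls add no support. Of these, Cth, which makes cysteine, averaged 10.70 log2 in iPSC against 3.74 log2 in steady-state HSC, where 5 of 6 arrays were below the dim level. The cationic amino acid transporter gene Slc7a3 (10.90 against 4.23 log2) and the branched-chain aminotransferase gene Bcat1 (10.83 against 4.21 log2) were below it on all 6 steady-state arrays. With readings below the dim level raised to it, Cth was at least 70.1-fold, Slc7a3 at least 80.4-fold and Bcat1 at least 76.8-fold higher in iPSC. The tRNA synthetase gene Aars differed by 3.06 (SE 0.14, called). Of 13 genes of the eIF2 machinery 6 rose, such as Eif2b5 (2.49, SE 0.25) and Eif2s2 (2.09, SE 0.12), and 4 fell. Their median was 0.41 log2. Those that fell included the Y-linked Eif2s3y (-4.12, SE 0.21), which was below the dim level in young-origin iPSC.

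The remaining lists had called genes in both directions, where 41.8% of all genes were called higher and 34.7% lower. Of 18 genes of the ATF6 and IRE1 branches 6 rose and 6 fell, which is near those shares. Their median was -0.01 log2. Ern1, the gene of the sensor IRE1, averaged 6.71 log2 in iPSC against 10.91 log2 in steady-state HSC (difference -4.20, SE 0.19, adjusted p = 5.93e-11 by limma), and the chaperone gene Dnajb9 differed by -2.83 (SE 0.22). Of 13 stress factors 6 rose and 5 fell: Sesn2, a regulator of mTORC1, differed by 3.93 (SE 0.13) and Vldlr by -4.88 (SE 0.15). Of the 6 paralogues 3 rose and 3 fell, among them Trib2 at -2.13 (SE 0.17). Summed feeder fibroblast markers stood at 8.51 to 9.44 log2 on the iPSC arrays against 8.17 to 8.40 log2 on the steady-state arrays, with Col3a1 below the dim level in both iPSC groups, and their part in these differences was not tested.

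Within the pluripotent cells no member was called. Between iPSC of aged and young origin 0 of the 8 members was called, against 0.00733% of all genes. An unadjusted p under 0.05 (limma) was found for 0 of the 8, beside 679 of the 13645 genes tested. The 1 gene called was of the wider pathway: Eif2s3y, the Y-linked eIF2 subunit gene, read 9.23 and 8.91 log2 in aged-origin iPSC against 3.62 and 3.90 log2 in young-origin iPSC (adjusted p = 0.00121 by limma). Both young-origin arrays were below the dim level, so with them raised to it the gene was at least 19.2-fold higher in aged-origin iPSC. The Y-linked Uty read 5.39 and 5.80 log2 in aged-origin against 4.80 and 4.19 log2 in young-origin iPSC, so origin and this sex-chromosome difference cannot be told apart. All 8 members were below 0, from -0.46 (SE 0.25) for Atf3 and -0.36 (SE 0.17) for Ddit4 to -0.06 (SE 0.12) for Atf4, and their median was -0.25 log2 beside -0.03 log2 for all genes. That direction was not stable for 3 of them. Atf4 turned to 0.03 after quantile normalisation and 0.02 with the mean of its probe sets, Asns to 0.02 without young-origin replicate 1, and Eif2ak3 to 0.096 without aged-origin replicate 2 and 0.0995 without young-origin replicate 1. A dimmer probe set of Atf4 was at 0.30 (SE 0.16) and one of Eif2ak3 at 0.06 (SE 0.13). Trib3 read 10.13 and 9.90 log2 in aged-origin against 10.21 and 10.28 log2 in young-origin iPSC, without overlap. Its difference was -0.23 (SE 0.13, adjusted p = 0.976 by limma). Ddit4, Atf4 and Chac1 (-0.26, SE 0.14) were also without overlap on the probe sets that stand for them. The share of all genes without overlap was not counted.

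Against ESC 0 of the 8 members was called in iPSC, with 0.11% of all genes called. An unadjusted p under 0.05 (limma) was found for 1 member, beside 1737 of the 13645 genes tested. That member was Trib3, at 10.13, 9.90, 10.21 and 10.28 log2 in iPSC against 9.74 and 9.86 log2 in ESC, a difference of 0.33 (SE 0.11, adjusted p = 0.302 by limma). On this probe set every iPSC array lay above both ESC arrays. Its other probe set overlapped, with 8.62, 8.22, 8.65 and 8.66 log2 in iPSC against 8.40 and 8.46 log2 in ESC and a difference of 0.11 (SE 0.14). The others lay between -0.36 (SE 0.22) for Atf3 and 0.34 (SE 0.18) for Ddit3, with Asns at -0.16 (SE 0.11), Chac1 at 0.09 (SE 0.12) and Atf4 at -0.01 (SE 0.10), which was 0.01 after quantile normalisation. Nupr1 differed by 0.32 log2 (SE 0.12), as a description, and by 0.18 or 0.45 log2 when either ESC array was left out. All genes called in iPSC against ESC split into 6 higher and 9 lower, and into 2 higher and 7 lower after quantile normalisation. The 9 lower ones included the Y-linked Eif2s3y, at -2.73 (SE 0.31, adjusted p = 0.0145 by limma).

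Atf3, a stress-induced repressor gene that is also an immediate early gene, behaved unlike the rest within steady-state HSC. It read 8.18, 4.73 and 4.48 log2 in aged and 7.26, 4.41 and 4.29 log2 in young steady-state cells, so array 1 of each group stood far above the others of its group. The same 2 arrays had the highest mean of 8 immediate early genes (Fos, Fosb, Jun, Junb, Egr1, Ier2, Dusp1 and Nr4a1), the genes that cells switch on within minutes of a stimulus. That mean was 12.55, 10.32 and 9.75 log2 in aged and 11.95, 9.64 and 9.58 log2 in young cells. Nr4a1 alone read 11.62, 7.69 and 7.29 log2 in aged and 10.99, 7.07 and 7.16 log2 in young cells.

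Other members differed on these arrays too. Atf4 was highest on array 1 of each steady-state group, at 10.61 and 10.52 log2, and Chac1 lowest there, at 4.90 and 4.97 log2. Ddit4 had its highest aged reading (8.48 log2) and its lowest young one (7.70 log2) there. With both arrays left out, aged cells read 7.39 and 7.06 against 8.87 and 8.16 log2 in young cells. The Ddit4 age difference was then -1.29 log2 and not called (adjusted p = 0.623 by limma). Without both arrays, Atf3 in iPSC against steady-state HSC was called at 1.48 log2 (adjusted p = 0.000337 by limma), where with them it was at 0.40 (SE 0.69, adjusted p = 0.605). In the HSC comparisons Atf3 fell below the dim level without them and had no value, which left 7 members. Of these, 0 were called by age in steady-state HSC, with 0.278% of all genes called. For transplantation 6 of the 7 were called, with 62.9% of all genes. Ddit3 lost its call in iPSC against steady-state HSC (0.42, adjusted p = 0.0834). Atf3 read 3.93 and 3.68 log2 in aged and 5.67 and 4.37 log2 in young transplanted cells, of which only the 5.67 was above the dim level.

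**Figure D5:**
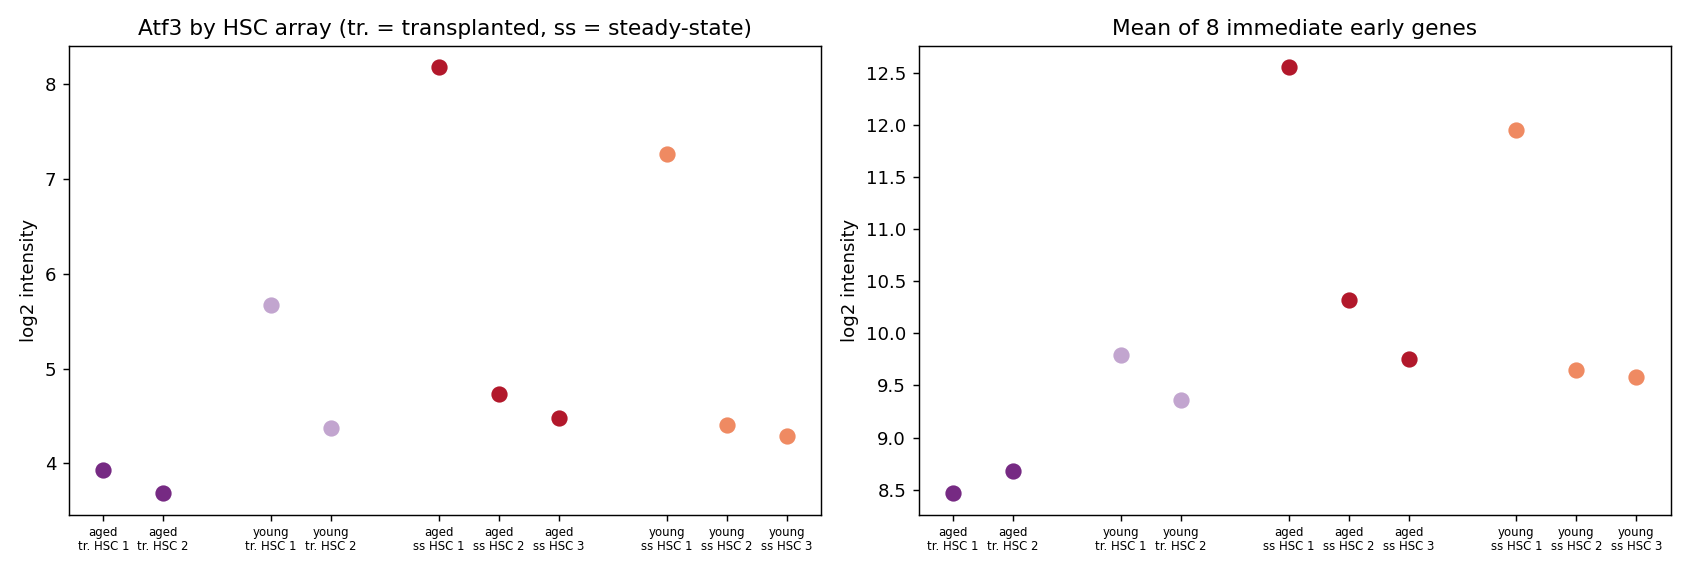
Log2 intensity of Atf3 (left) and mean log2 intensity of 8 immediate early genes (right) on each of the 10 HSC arrays, coloured by group. Array 1 of aged and of young steady-state HSC is highest in both panels, at 8.18 and 7.26 log2 for Atf3 and 12.55 and 11.95 log2 for the immediate early genes.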

How the data were processed

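RNA from 16 mouse samples had been hybridised to single-channel Affymetrix arrays from 10000 cells a sample, per the labels. The values are linear intensity values deposited by the authors for 45101 probe sets; how the authors summarised and scaled them was not given in the sources used here, and the table holds no detection calls. They were put on the log2 scale with no pseudocount and the deposited scaling was kept.

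Genes were named from a probe table, and 18032 of 18193 matched RefSeq identifiers. A gene stands as its probe set with the highest mean over all arrays, and 13645 genes at or above the 25th percentile of mean level entered each fit, all 9 members among them. Comparisons used limma 3.58.1 in R 4.3.3 with Benjamini-Hochberg adjustment over all genes, called under 0.05: 10 HSC arrays together (6 residual degrees of freedom), 6 iPSC and ESC arrays together (3), and all 16 for iPSC against steady-state HSC (9). The fits were tested on simulated data. The number of arrays, 2 or 3 a group, limits the precision.

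Members and gene lists were chosen with earlier results of these data known. All members are named, and of each list up to 4 called genes with the smallest p in a comparison; genes most like Nupr1 are the 5 with the highest r. The labels do not say whether equal replicate numbers pair samples, and the main fits did not pair them. Alternatives were quantile normalisation, median centring, other dim filters, probe-set rules, spread models, a pseudocount, other fits, a replicate block and each array left out. Promoter sequences are RefSeq's (GRCm38.p6).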

Additional observations from a re-analysis of the deposited data

Results flagged for a closer look

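Aged and young arrays of Nupr1 lay apart in opposite directions in HSC and iPSC. The aged minus young difference was 3.41 log2 in steady-state and 1.13 log2 in transplanted HSC, with every aged array above every young one, and -0.33 log2 in iPSC, with both aged-origin arrays below both young-origin ones. Trib3 did the same on its brighter probe set, at 0.46 log2 in steady-state HSC, 1.25 log2 in transplanted HSC and -0.23 log2 in iPSC. On its dimmer probe set the aged and young arrays overlapped in both kinds of HSC, at 0.23 log2 in steady-state and 0.32 log2 in transplanted HSC, and did not overlap in iPSC, at -0.23 log2. The difference between HSC and iPSC was not tested for either gene, and the iPSC differences came from 2 arrays against 2. How many of all genes showed this pattern was not counted.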

How the results depend on the processing

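Of 1236 differences of members recomputed under the alternatives, 1179 kept their direction and their side of the threshold or moved by less than the replicate spread. Another 13 gained a call and 7 lost one. A further 36 moved: 8 were of Nupr1, which kept its direction, and the rest were uncalled differences of other members that turned direction. The 1 that had been called and turned direction was Ddit3 in iPSC minus steady-state HSC. It was -0.034 log2 with the mean of its probe sets (adjusted p = 0.888 by limma). Members called by age in transplanted HSC numbered 1 after quantile normalisation and 1 with all 16 arrays in the fit, and 0 to 2 with single arrays left out; for the difference of the age effects they numbered 0 to 2 with single arrays left out. In the other comparisons the members called were 0 throughout by age in steady-state HSC, by origin in iPSC and against ESC, 5 to 7 for transplantation and 6 or 7 for iPSC against steady-state HSC. Nupr1 kept its sign in every comparison, at 3.16 to 3.53 log2 by age in steady-state HSC and 0.79 to 1.48 log2 in transplanted HSC. Counts over all genes moved more. Apart from single arrays left out, they ran from 38 to 415 by age in steady-state HSC (161 as reported) and 0 to 674 in transplanted HSC (184). They ran from 1 to 199 for the difference of age effects (17), 1 to 3 by origin (1, the 3 being probe sets) and 9 to 66 against ESC (15). Leaving out single arrays moved those in transplanted HSC and of the age effects further. Transplantation called 6835 of 9097 genes (75.1%) with the stricter dim filter and 18138 of 26209 probe sets (69.2%), against 9534 of 13645 genes (69.9%). For iPSC against steady-state HSC these were 7193 (79.1%), 18684 (71.3%) and 10429 (76.4%). Whether equal replicate numbers pair the samples was not settled. Same-numbered arrays had r of deviations 0.13, -0.16 and 0.16 in steady-state HSC, where array 1 of both ages had the highest Atf3. With a replicate block, all genes called by age in transplanted HSC were 27. Atf3 was then called in transplanted minus steady-state HSC (-1.73, adjusted p = 0.0106 by limma), and the block changed no other call of a member. With the transplanted numbers crossed in the block, Atf3 was at the same -1.73 and was not called (adjusted p = 0.0503 by limma). That crossing was added after seeing the data, and with it 31 genes and 0 members were called by age in transplanted HSC. The arrays left out as a pair were likewise chosen after seeing the data. Leaving an arm with 1 array assumes that it varies like the other groups. The cause of these shifts was not tested.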
